A study of Mus musculus with 12 samples.

Results

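The Elovl genes encode the elongases that lengthen long and very long fatty acids, and the mouse genome carries 7 of them, Elovl1 to Elovl7. The family was taken as every row of the count files whose mouse gene identifier has an Elovl symbol, which gave 7 genes among the 55536 counted in each library. Poly-A-selected RNA was sequenced from the brown fat (BAT) and the inguinal white fat (IWAT) of C57BL/6 mice, with 3 libraries in each of 4 groups, in a study of CGRP-expressing sensory neurons, thermogenesis and diet-induced obesity. The WT-NC groups were wild-type mice on normal chow, and the KI-HFD groups were mice of the genotype written Adv-CGRPalpha+/- on a high-fat diet. The labels do not spell out which allele or promoter that genotype stands for, and they give neither age nor sex. Genotype and diet changed together between these groups, so their parts in any difference cannot be told apart. Nothing in the labels ties a library to a separate animal, so the spread between libraries may in part be technical.

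Each elongase sits in the membrane of the endoplasmic reticulum and condenses a fatty acyl-CoA with malonyl-CoA, the first and slowest step of an elongation cycle. The cycle is completed by the ketoacyl-CoA reductase Hsd17b12, the dehydratases Hacd1 to Hacd4 and the enoyl-CoA reductase Tecr, which the elongases share. Elovl3 and Elovl6 are well known in brown fat of mice, where Elovl3 is strongly induced by cold and Elovl6 turns palmitate into stearate under the control of lipogenic factors such as Srebf1.

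The promoters of 4 of the members are shown because these members behaved differently across the depots: Elovl6 and Elovl4 had higher counts in BAT, Elovl1 had higher counts in IWAT and Elovl5 was near level. They are RefSeq sequences of the build GRCm38.p6. Each runs up to the RefSeq start, or to the first exon in the GENCODE annotation where that comes first. The Elovl4 window stops at the RefSeq start, upstream of the GENCODE gene. Elovl1 has 2 RefSeq promoters, and the first listed is shown. RefSeq promoters were at hand for 6 of the 7 members, and Elovl3 was the member without one. Capitals mark matches on either strand to CCAAT (the CCAAT box), GGGCGG (the GC box), CACGTG (an E-box), TCACNCCA (an element like that bound by SREBP) and AGGTCANAGGTCA (the repeat bound by PPAR and RXR).
Elovl6, chr3:129532136-129532354, plus strand: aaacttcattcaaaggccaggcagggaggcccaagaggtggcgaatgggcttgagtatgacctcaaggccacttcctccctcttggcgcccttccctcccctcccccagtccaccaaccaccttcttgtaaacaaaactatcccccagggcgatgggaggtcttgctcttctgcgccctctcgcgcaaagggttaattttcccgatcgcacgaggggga
Elovl4, chr9:83806306-83806555, minus strand: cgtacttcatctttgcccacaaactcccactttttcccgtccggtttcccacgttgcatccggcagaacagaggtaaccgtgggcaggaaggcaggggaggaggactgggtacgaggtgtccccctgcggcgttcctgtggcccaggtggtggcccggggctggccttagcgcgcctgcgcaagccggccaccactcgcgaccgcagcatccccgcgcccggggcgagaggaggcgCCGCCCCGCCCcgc
Elovl1, chr4:118427843-118428092, plus strand: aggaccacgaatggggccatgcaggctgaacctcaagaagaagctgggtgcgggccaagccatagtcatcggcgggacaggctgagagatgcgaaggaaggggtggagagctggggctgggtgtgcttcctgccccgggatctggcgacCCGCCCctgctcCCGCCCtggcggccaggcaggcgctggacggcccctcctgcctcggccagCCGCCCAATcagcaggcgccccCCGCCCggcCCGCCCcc
Elovl5, chr9:77917115-77917363, plus strand: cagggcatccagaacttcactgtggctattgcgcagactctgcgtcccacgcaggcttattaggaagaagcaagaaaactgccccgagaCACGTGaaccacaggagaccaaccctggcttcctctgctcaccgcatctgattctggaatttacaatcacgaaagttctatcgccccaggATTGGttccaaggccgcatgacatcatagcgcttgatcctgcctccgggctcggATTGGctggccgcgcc

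The Elovl6 window of 219 bases held none of the 5 letter patterns. The Elovl4 window held 2 GC boxes, which overlap each other, and the Elovl1 window held 5 GC boxes, of which 1 overlaps its CCAAT box. The Elovl5 window held 2 CCAAT boxes and the single E-box of the 4 windows. GC boxes occurred in 32.7% and CCAAT boxes in 33.8% of 32851 RefSeq promoter windows of 250 bases, so those matches are common. The E-box occurred in 6.0% of windows of the length of Elovl5, and the SREBP-like element and the PPAR repeat in 3.67% and 0.0335% of windows of 250 bases. A match describes the letters only.

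The tissue labels were checked against marker genes before the members were read. The summed CPM of 8 brown adipocyte markers (CPM, counts-per-million of a library's gene counts, with TMM factors over the 12 libraries) ran from 9672 to 18165 in BAT and from 64.8 to 250.0 in IWAT. The summed CPM of 6 white adipocyte and depot markers ran from 167 to 1251 in BAT and from 4918 to 9152 in IWAT, and Hoxc10 was at 0 counts in 5 BAT libraries. Total gene counts ran from 17.41 M to 23.51 M per library. BAT libraries carried muscle RNA in unequal amounts: the summed CPM of 8 skeletal muscle markers was 14682, 52875 and 441 in the WT-NC libraries and 12484, 8999 and 1792 in the KI-HFD libraries. IWAT KI-HFD replicate 3 stood apart in lymphocyte markers, with a summed CPM of 604 against 3.81 to 28.1 in the other 11 libraries. In bulk tissue, fewer cells of a type and less RNA per cell cannot be told apart.

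Elovl3 makes saturated and monounsaturated very long chain fatty acids. It lies on chromosome 19 at 46131897 to 46135694, plus strand (GRCm38, GENCODE M21), and shares 10 exon bases with Pitx3 on the other strand. In BAT the 3 WT-NC libraries stood at 59.4, 140.1 and 222 CPM, and the 3 KI-HFD libraries stood at 476, 449.9 and 339.9 CPM. Every KI-HFD library lay above every WT-NC library. The WT-NC libraries differed among themselves by 3.73-fold from lowest to highest, and the KI-HFD libraries by 1.40-fold.

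In IWAT the WT-NC libraries held Elovl3 at 3.84, 3.74 and 7.33 CPM, and the KI-HFD libraries at 1.30, 0.287 and 0.599 CPM. There the order was the opposite, with every KI-HFD library below every WT-NC library. The IWAT KI-HFD values rest on 29, 6 and 15 counts, against 102, 89 and 178 in IWAT WT-NC and 1040 to 8193 in BAT. The 2 sets of counts therefore differ in precision, and those of IWAT KI-HFD are the least precise for this gene.

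Fitted with edgeR within each depot, Elovl3 was 3.00-fold higher in KI-HFD than in WT-NC in BAT (log2 1.58, SE 0.44, n = 3 per group) and 6.76-fold lower in IWAT (log2 -2.76, SE 0.58, n = 3 per group). These values are given as a description because the family was chosen with them in view. The SE of an edgeR value, here and below, is the absolute log2 fold change divided by the square root of its quasi-likelihood F statistic. It was thus derived from the test and not estimated separately. Among all genes tested in BAT, its log2 fold change ranked 67 from the top of 15726. Among all genes tested in IWAT, it ranked 46 from the bottom of 15881. The difference between the depots' log2 fold changes, BAT minus IWAT, was 4.34 (SE 0.73), which ranked 24 from the top of 17395.

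The authors' deposited table gives Elovl3 at 1.30 (SE 0.34) in BAT and at -1.68 (SE 0.34) in IWAT on the log2 scale. In the authors' deposited table it was among 247 of 16794 genes (1.47%) with an adjusted p under 0.05 in BAT and among 335 of 15080 (2.22%) in IWAT. No other member was called there. That table describes the same libraries whose values chose the family, so its calls are no separate support. In the edgeR fits Elovl3 was not under that threshold in either depot, where 7 of 15726 genes in BAT and 0 of 15881 in IWAT were.

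The summed CPM of the 8 brown adipocyte markers in BAT was 9672 to 12994 in WT-NC and 16606 to 18165 in KI-HFD. All 8 had a fitted log2 fold change above 0 with a median of 0.52, although none passed the test (edgeR, adjusted p threshold 0.05). Of the 8, 2 were higher without overlap, where 6.94% of all genes were. Within BAT WT-NC the order differed from that of Elovl3. Replicate 1 had the lowest Elovl3 level, 59.4 CPM, and the highest marker sum, 12994 CPM. Ucp1, the uncoupling protein of brown fat, was at 6612, 5667 and 8881 CPM in BAT WT-NC, against 12244, 9159 and 8824 CPM in BAT KI-HFD, so its groups overlapped. The summed CPM of 6 general adipocyte markers was 13712 to 21577 in BAT WT-NC and 20730 to 25213 in BAT KI-HFD. That of 7 macrophage markers was 303 to 1242 in BAT WT-NC and 160 to 204 in BAT KI-HFD, and all 7 had a log2 fold change below 0. The part of these markers in the BAT difference of Elovl3 was not tested.

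In IWAT, the summed brown adipocyte markers overlapped between the groups, at 137.9 to 162.4 CPM in WT-NC, against 64.8 to 250.0 CPM in KI-HFD. Of the 8 markers, 3 had a log2 fold change above 0 and 5 below. Without overlap, 0 were higher and 1 was lower, where 8.19% and 8.31% of all genes were. That 1 was Otop1, at 57.5 to 65.4 CPM in IWAT WT-NC and 17.8 to 53.7 CPM in IWAT KI-HFD. The summed CPM of 4 endothelial markers was 709 to 1061 in IWAT WT-NC and 299.9 to 662 in IWAT KI-HFD. Of the 4, 3 were lower without overlap, where 8.31% of all genes were. All 7 macrophage markers (median log2 -0.88) and all 8 skeletal muscle markers (median log2 -3.31) were below 0. Of these, 1 and 3 were lower without overlap, beside the same 8.31% of all genes. All 6 lymphocyte markers were above 0, with 0 higher without overlap. Their sum was 604 CPM in IWAT KI-HFD replicate 3 but 3.81 and 5.94 CPM in replicates 1 and 2. In IWAT WT-NC it was 8.77 to 28.1 CPM. None of these markers passed the edgeR test, and their part in the IWAT difference of Elovl3 was not tested. IWAT WT-NC replicate 3 had the highest Elovl3 level of its depot and also the highest Ucp1 level, 27.8 CPM against 2.69 to 9.48 CPM in the other 5 IWAT libraries. Its summed brown adipocyte markers were not the highest. They were at 158.1 CPM, beside 162.4 CPM in IWAT WT-NC replicate 2 and 250.0 CPM in IWAT KI-HFD replicate 2. Without IWAT WT-NC replicate 3 the IWAT log2 fold change of Elovl3 was -2.37, and without IWAT KI-HFD replicate 1 it was -3.47.

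Elovl6, which elongates palmitate to stearate, lies on chromosome 3 at 129532355 to 129638495, plus strand, and shares 34 exon bases with the antisense gene Gm35986. In BAT the WT-NC libraries stood at 313, 249 and 359 CPM, and the KI-HFD libraries at 551, 603 and 449 CPM. The KI-HFD libraries all lay above the WT-NC libraries, a 1.72-fold difference (log2 0.79, SE 0.26, n = 3 per group). In IWAT the WT-NC libraries stood at 19.6, 17.6 and 22.1 CPM, and the KI-HFD libraries at 22.1, 32.8 and 18.3 CPM. The IWAT groups overlapped, and the log2 fold change of 0.30 (SE 0.23) came to 0.02 without IWAT KI-HFD replicate 2, the highest of the 6. BAT minus IWAT, the difference between the log2 fold changes of Elovl6 was 0.50 (SE 0.34).

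Elovl1 elongates saturated fatty acids into the very long chains used for sphingolipids in many tissues. It lies on chromosome 4 at 118428093 to 118432953, plus strand, and shares 53 exon bases with Cdc20 on the other strand. Its BAT level was 33.6, 32.4 and 40.2 CPM in WT-NC, against 19.7, 20.3 and 30.7 CPM in KI-HFD. The BAT KI-HFD libraries were all lower (log2 -0.60, SE 0.24), the direction opposite to Elovl3 and Elovl6 in the same libraries. Its IWAT level was 65.6, 65.6 and 75.6 CPM in WT-NC, against 69.9, 52.3 and 52.0 CPM in KI-HFD, and the groups overlapped (log2 -0.25, SE 0.15).

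Elovl5, which elongates polyunsaturated fatty acids such as those made by the desaturases Fads1 and Fads2, lies on chromosome 9 at 77917364 to 77984519, plus strand. Its level was 92.6, 82.8 and 142 CPM in BAT WT-NC and 232, 139 and 126 CPM in BAT KI-HFD. The BAT groups overlapped, and the log2 fold change of 0.64 (SE 0.31) came to 0.30 without BAT KI-HFD replicate 1. Its IWAT level was 116, 125 and 148 CPM in WT-NC, against 119, 109 and 117 CPM in KI-HFD. The IWAT groups overlapped too (log2 -0.17, SE 0.13), and the 3 IWAT KI-HFD libraries lay closest together of all its groups.

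Elovl4 makes the longest fatty acids known in mammals and is best known from retina, skin and brain. It lies on chromosome 9 at 83778692 to 83806277, minus strand, 5.794 Mb from Elovl5. In BAT it had 23, 40 and 83 counts in WT-NC and 297, 90 and 59 counts in KI-HFD, or 1.32, 1.84 and 3.89 CPM against 17.8, 4.94 and 3.51 CPM. The BAT groups overlapped, and BAT KI-HFD replicate 1 lay far above the other 5 libraries. The fitted log2 fold change was 1.89 (SE 0.69) with that library and 0.83 without it. In IWAT Elovl4 had 10, 8 and 1 counts in WT-NC and 0, 8 and 9 counts in KI-HFD, and it did not pass the count filter there.

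Elovl7, a relative of Elovl1 that also acts on saturated chains, lies on chromosome 13 at 108214404 to 108285683, plus strand. It had 0, 2 and 8 counts in BAT WT-NC and 0 in all 3 BAT KI-HFD libraries, where a count of 0 allows a level of up to 0.165 to 0.180 CPM (3 counts, counting error only). In IWAT it had 10, 1 and 6 counts in WT-NC and 8, 8 and 50 counts in KI-HFD. The library with 50 counts is IWAT KI-HFD replicate 3, the one with 604 summed CPM of lymphocyte markers. The part of those cells in the Elovl7 count was not tested. Elovl2, the elongase that makes the precursors of docosahexaenoic acid in liver, lies on chromosome 13 at 41182381 to 41220405, minus strand, and had 0 to 4 counts in every library. Neither Elovl7 nor Elovl2 passed the count filter in any comparison.

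**Figure D1:**
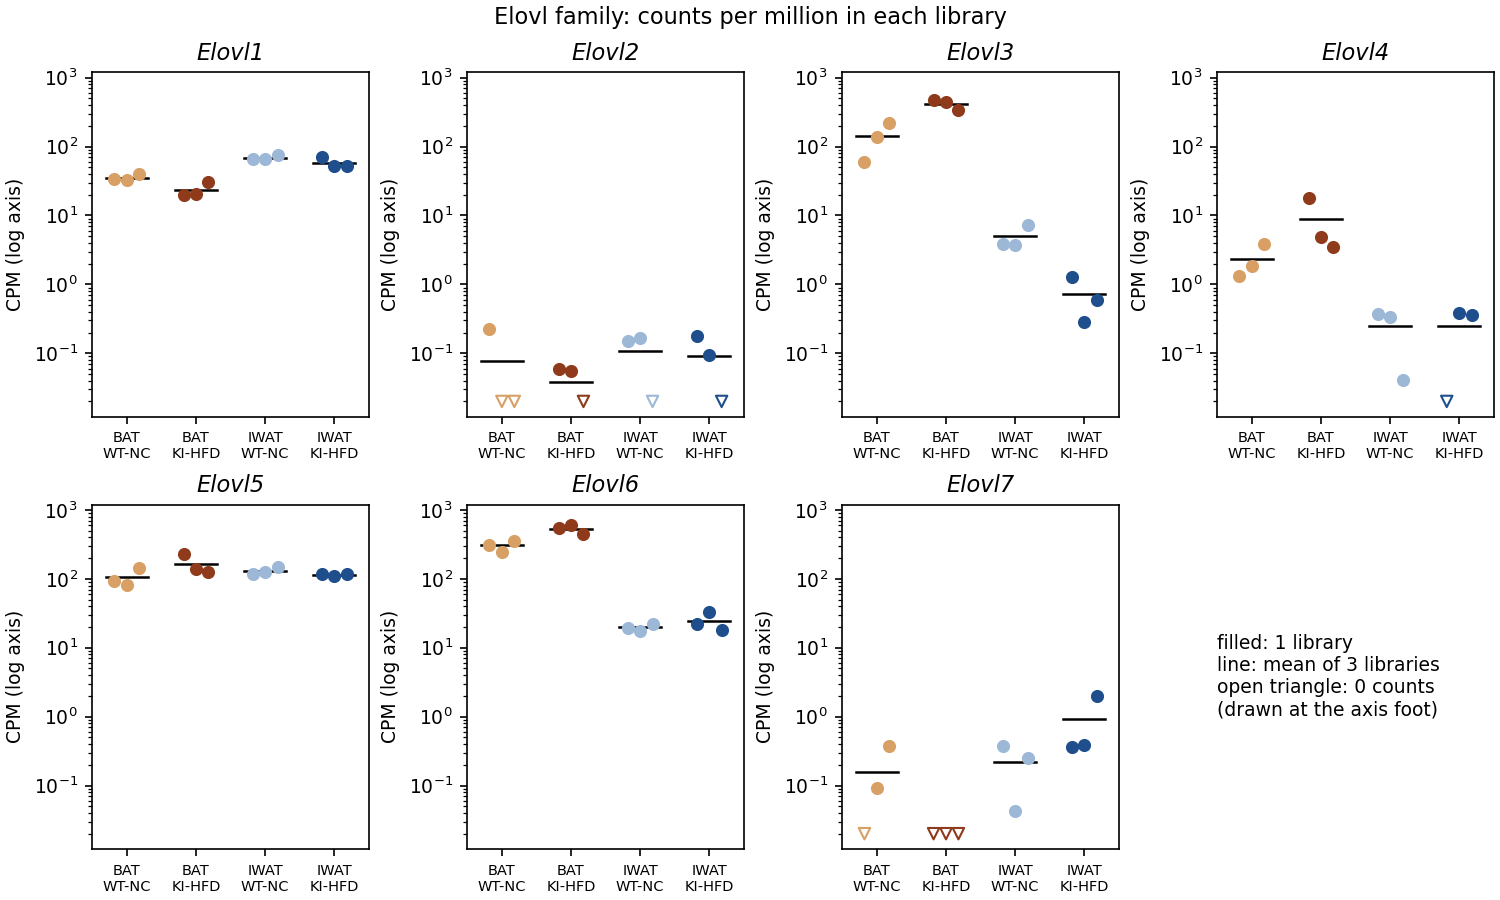
Level of each Elovl gene in every library, in CPM on a log axis, by group. Each filled point is 1 library, each line the mean of 3 libraries, and each open triangle a library at 0 counts. Elovl3 lies at 59.4 to 476 CPM in BAT and at 0.287 to 7.33 CPM in IWAT, and Elovl5 at 82.8 to 232 CPM in all 12 libraries.

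The depots differed in which elongase was most abundant per length. Levels per length were taken as TPM (transcripts-per-million, counts divided by the summed exon length of each gene and scaled to a common total). In BAT WT-NC, Elovl3 was at a mean of 189 TPM (69.2 to 314), Elovl6 at 123 (100.1 to 156), Elovl5 at 78.0 (60.4 to 113) and Elovl1 at 33.4. The ranges of the first 3 overlapped from each to the next, so their order is not set by these libraries, while Elovl1, Elovl4 at 2.05 and Elovl7 at 0.107 TPM each lay below the one before.

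In BAT KI-HFD, Elovl3 was at 489 TPM (382 to 578) and stood clear of Elovl6 at 189.6 TPM (155 to 208). Elovl6 overlapped with Elovl5 at 108 TPM (79.2 to 158), and Elovl1 at 19.6 TPM and Elovl4 at 6.77 TPM followed. Elovl1 was thus the fourth member in both BAT groups.

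In IWAT WT-NC the order was Elovl5 at 137 TPM (122 to 159), Elovl1 at 93.9 TPM (87.2 to 105) and Elovl6 at 11.4 TPM (9.92 to 13.0). Elovl3 followed at 9.38 TPM (6.86 to 14.1) and overlapped with Elovl6. In IWAT KI-HFD, Elovl5 at 113 TPM (97.3 to 129) and Elovl1 at 73.4 TPM (60.2 to 86.1) again led. Elovl6 was at 12.9 TPM (11.0 to 16.0), and Elovl3 at 1.28 TPM (0.456 to 2.21) no longer overlapped with it but with Elovl7 at 0.844 TPM.

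As a share of all Elovl TPM, Elovl3 made up 25.5%, 48.7% and 50.0% in the BAT WT-NC libraries and 59.4%, 61.5% and 59.4% in the BAT KI-HFD libraries. In IWAT its mean share was 3.63% ± 1.04 (SD, n = 3) in WT-NC and 0.613% ± 0.392 (SD, n = 3) in KI-HFD. Elovl5 and Elovl1 held most of the IWAT total, at 54.2% ± 1.2 and 37.4% ± 1.3 in WT-NC and 56.0% ± 3.1 and 36.3% ± 3.5 in KI-HFD (SD, n = 3). The share of Elovl6 was 30.9% ± 9.0 in BAT WT-NC and 23.5% ± 2.2 in BAT KI-HFD, and that of Elovl1 was 8.39% ± 1.95 and 2.56% ± 1.16 (SD, n = 3).

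Summed over the family, TPM was 271, 376 and 627 in BAT WT-NC and 973, 822 and 644 in BAT KI-HFD, with every KI-HFD library above every WT-NC library. In IWAT the sum was 231, 234 and 292 in WT-NC and 213, 175 and 218 in KI-HFD, with every KI-HFD library below. TPM carries no TMM factor, and these factors were 1.13, 1.08 and 1.11 in IWAT WT-NC and 0.993, 0.991 and 1.18 in IWAT KI-HFD. In CPM with TMM factors, the IWAT groups of Elovl5 and Elovl1, which hold most of the sum, overlapped. The order of the IWAT sums therefore depends on the scaling. BAT WT-NC replicate 3 and BAT KI-HFD replicate 3 lay close to each other, at 627 and 644 TPM.

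**Figure D2:**
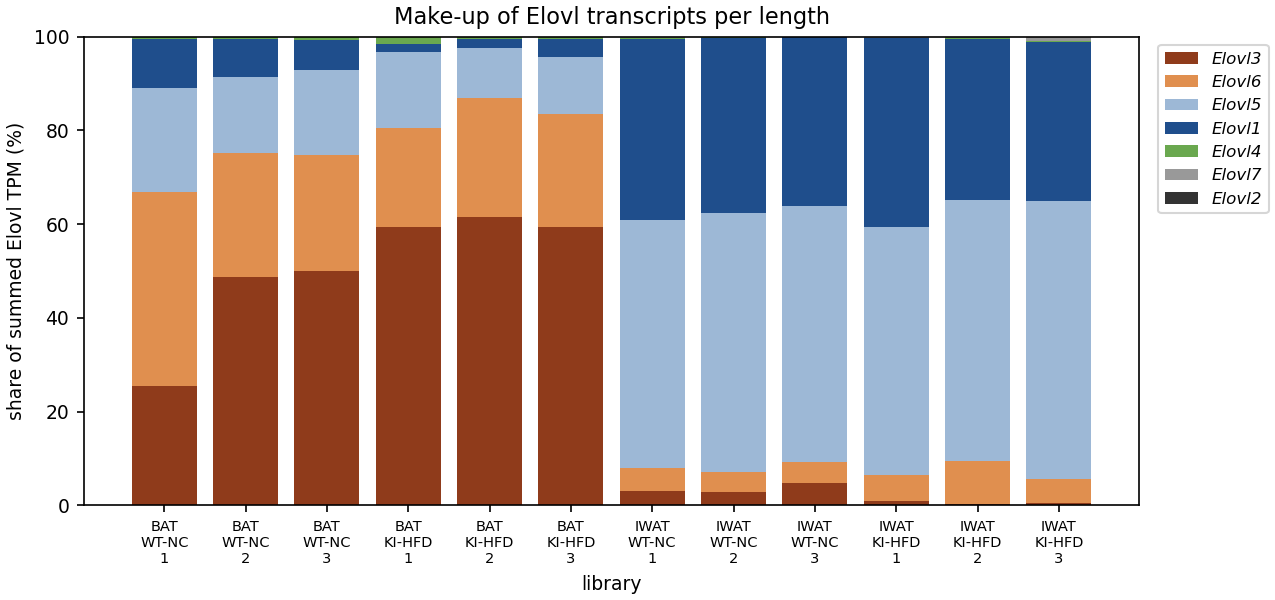
Make-up of the Elovl transcripts of each library, as the share of the summed Elovl TPM in percent, with 1 stacked bar per library and 1 colour per gene. Elovl3 and Elovl6 fill most of every BAT bar, and Elovl5 and Elovl1 most of every IWAT bar. BAT WT-NC replicate 1 has the smallest Elovl3 share of the BAT libraries, 25.5%.

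Between the depots, Elovl3, Elovl4 and Elovl6 were higher in BAT and Elovl1 was higher in IWAT in both groups of mice, with no overlap of libraries. These fits used all 12 libraries as independent samples, and log2 fold changes are BAT over IWAT. The deposited files carry numbers, and 5 of the 6 BAT libraries share theirs with an IWAT library of the same group, so the depots may share animals, which the labels do not state. Elovl3 differed by 4.82 (SE 0.54) in WT-NC and by 9.16 (SE 0.67) in KI-HFD, which ranked 319 and 27 from the top of 17395 genes. Elovl6 differed by 3.96 (SE 0.27) and 4.45 (SE 0.27), and Elovl4 by 3.19 (SE 0.96) and 5.11 (SE 1.02). The Elovl4 values rest on at most 10 counts in any IWAT library, and its KI-HFD value came to 4.05 without BAT KI-HFD replicate 1.

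Elovl1 differed by -0.96 (SE 0.20) in WT-NC and -1.30 (SE 0.20) in KI-HFD. Elovl5 differed by -0.29 (SE 0.26) in WT-NC, where the depots overlapped. In KI-HFD it differed by 0.53 (SE 0.26), where every BAT library lay above every IWAT library, though the lowest BAT and the highest IWAT library were at 126 and 119 CPM. Without BAT KI-HFD replicate 1 that value was 0.20. The depots differ in cell types throughout, as the adipocyte markers above show, so a difference per cell cannot be told apart from a difference in cells. All 8 skeletal muscle markers were also called higher in BAT in both groups of mice, where 14.9% of all genes were in WT-NC and 17.2% in KI-HFD. Without overlap, 1 of the 8 was higher in WT-NC and 8 in KI-HFD, beside 20.9% and 23.2% of all genes. The part of these markers in the depot differences was not tested.

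For reading these orders, all tested genes give the background. Between KI-HFD and WT-NC, groups that did not overlap were found for 13.2% of genes in BAT (6.94% higher and 6.24% lower in KI-HFD) and for 16.5% in IWAT (8.19% higher and 8.31% lower). Between the depots they were found for 44.6% of genes in WT-NC (20.9% higher and 23.7% lower in BAT) and for 47.4% in KI-HFD (23.2% higher and 24.2% lower). Of the 5 members tested in BAT, 3 had groups that did not overlap, Elovl3 and Elovl6 higher and Elovl1 lower in KI-HFD. Of the 4 tested in IWAT, Elovl3 was the one. Because these values chose the family, nothing is read from those counts.

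**Figure D3:**
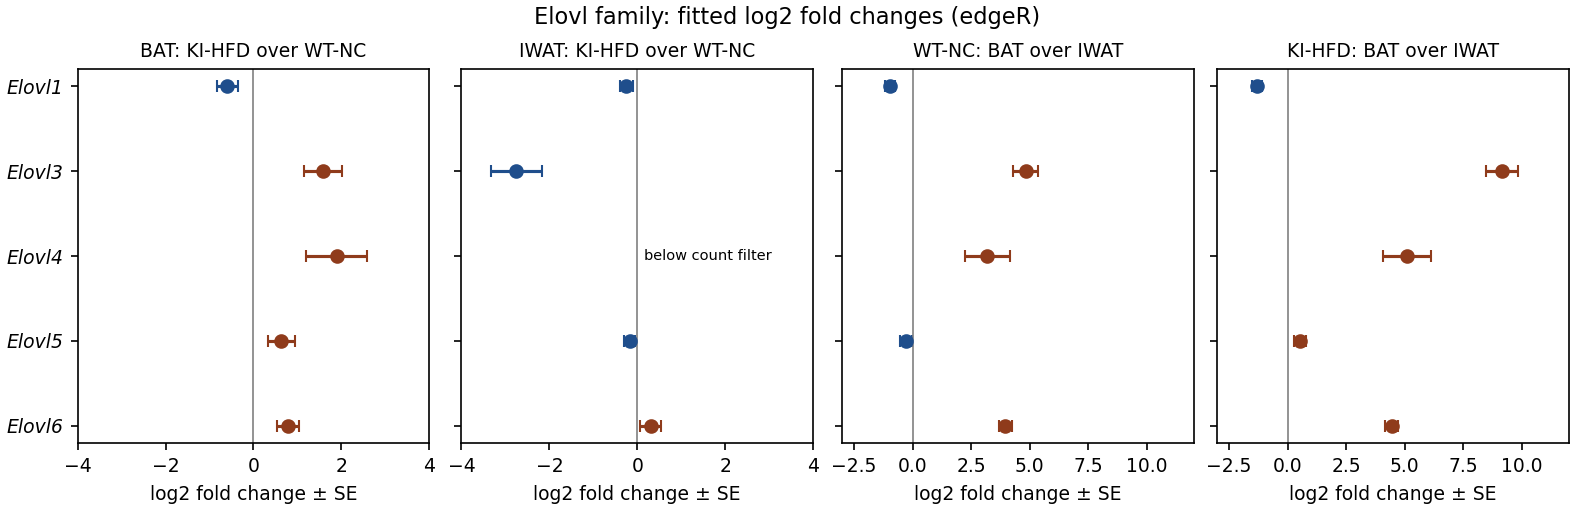
Fitted log2 fold changes of the Elovl genes with their standard errors, in 4 panels for KI-HFD over WT-NC in BAT and in IWAT and for BAT over IWAT in WT-NC and in KI-HFD. Red points are above 0 and blue points below, and each bar is 1 SE to either side, derived from the F statistic. Elovl3 is at 1.58 in BAT and at -2.76 in IWAT, and no other member has points this far to both sides between the depots.

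The genes around the elongases were followed in 8 lists of 80 genes, chosen with earlier results of these libraries known. In the comparison of KI-HFD with WT-NC, none of the 77 listed genes tested in BAT and none of the 73 tested in IWAT passed the edgeR test. All genes give the background: 7 of 15726 were called in BAT (0.0445%) and 0 of 15881 in IWAT (0.0%). At an unadjusted p under 0.05 there were 12 listed genes in BAT and 13 in IWAT, and over all genes 1244 and 1730. DESeq2 called 4 listed genes in BAT and 3 in IWAT, of 246 and 349 in all. The 4 were Slc27a2 and Acacb, with log2 1.82 and 1.08, and Fads3 and Hacd4, with log2 -1.92 and -1.31. The 3 in IWAT were Acaca, Scd1 and Acacb, with log2 1.37, 1.33 and 1.27.

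The enzymes that complete the elongation cycle had fitted log2 fold changes of -1.29 to 0.62 in BAT and of -0.61 to 0.24 in IWAT. In BAT, Hsd17b12, the ketoacyl-CoA reductase, was at 304 ± 146 CPM in WT-NC, against 469 ± 76.5 CPM in KI-HFD (SD, n = 3; log2 0.62, SE 0.35, edgeR adjusted p = 0.749). Tecr, the enoyl-CoA reductase, was at 406 ± 31.2 and 412 ± 40.8 CPM (SD, n = 3; edgeR adjusted p = 0.998). In IWAT, Hsd17b12 had a log2 fold change of -0.06 (SE 0.21) and Tecr of -0.15 (SE 0.16), with edgeR adjusted p = 0.931 and 0.762. The median log2 fold change of the 6 tested partners was 0.18 in BAT and -0.21 in IWAT, beside 0.005 and 0.04 over all genes.

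The desaturases, which place double bonds in the chains that elongases make, had a median log2 fold change of -0.47 in BAT and 0.07 in IWAT over 7 tested genes. Scd1, the stearoyl-CoA desaturase that uses the product of Elovl6, was at 17636 ± 5309 CPM in IWAT WT-NC and 44329 ± 16561 CPM in IWAT KI-HFD (SD, n = 3; log2 1.33, SE 0.50, edgeR adjusted p = 0.417). In BAT it was at 13989 ± 10838 and 14924 ± 5825 CPM (SD, n = 3; edgeR adjusted p = 0.983), with groups that overlapped. Fads3 was at 150.1 ± 109.5 CPM in BAT WT-NC and 40.2 ± 14.2 CPM in BAT KI-HFD (SD, n = 3; log2 -1.90, SE 0.50, edgeR adjusted p = 0.377).

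The list of de novo synthesis and malonyl-CoA genes had a median of 0.39 in BAT and 0.54 in IWAT over 9 genes. It includes the genes that make the palmitate and the malonyl-CoA that elongases use. Thrsp, a lipogenic cofactor, was at 2457 ± 536 and 4332 ± 524 CPM in BAT and at 219 ± 99.1 and 764 ± 511 CPM in IWAT (SD, n = 3). Its log2 fold changes were 0.80 (SE 0.34) and 1.80 (SE 0.50), with edgeR adjusted p = 0.629 and 0.325. Fasn, the fatty acid synthase, had log2 fold changes of 0.73 (SE 0.46) and 0.55 (SE 0.37), with edgeR adjusted p = 0.784 and 0.62.

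Of the 11 lipogenic regulators, 9 had a log2 fold change above 0 in each depot, where 50.5% of all genes in BAT and 55.0% in IWAT did. Their medians were 0.31 in BAT and 0.13 in IWAT, and none of the 11 was called. Srebf1, which drives Elovl6 and Scd1, was at 265 ± 85.3 and 398 ± 104 CPM in BAT and at 298 ± 45.5 and 492 ± 182 CPM in IWAT (SD, n = 3), with edgeR adjusted p = 0.738 and 0.408. The 13 PPAR and brown fat regulators had medians of 0.33 and 0.24. Pparg, the adipocyte master regulator, had log2 fold changes of 0.28 (SE 0.28) and 0.20 (SE 0.20), with edgeR adjusted p = 0.882 and 0.759.

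Among the genes that supply long-chain acyl-CoA, Slc27a2, a very long chain acyl-CoA synthetase, was the listed gene nearest to the threshold. It was at 114, 75.5 and 96.7 CPM in BAT WT-NC and at 340.3, 394 and 296 CPM in BAT KI-HFD. The groups lay well apart (log2 1.83, SE 0.25, edgeR adjusted p = 0.0983), and the gene was at 0.0896 to 1.03 CPM in the 6 IWAT libraries. The list's median was 0.42 in BAT over 9 genes and 0.06 in IWAT over 7. Acsl5, a long-chain acyl-CoA synthetase, was at 83.0, 127 and 222 CPM in BAT WT-NC and at 444, 384 and 239.6 CPM in BAT KI-HFD (log2 1.30, SE 0.39, edgeR adjusted p = 0.445).

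The genes of ceramide synthesis, which take up very long chains, had medians of 0.06 in BAT over 9 genes and -0.06 in IWAT over 8. Cers2, the synthase that prefers very long chains, was at 278 ± 94.5 and 297 ± 62.7 CPM in BAT (SD, n = 3; edgeR adjusted p = 0.967). The genes of peroxisomal oxidation, which shorten very long chains, had medians of 0.42 in BAT over 13 genes and 0.15 in IWAT over 12.

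**Figure D4:**
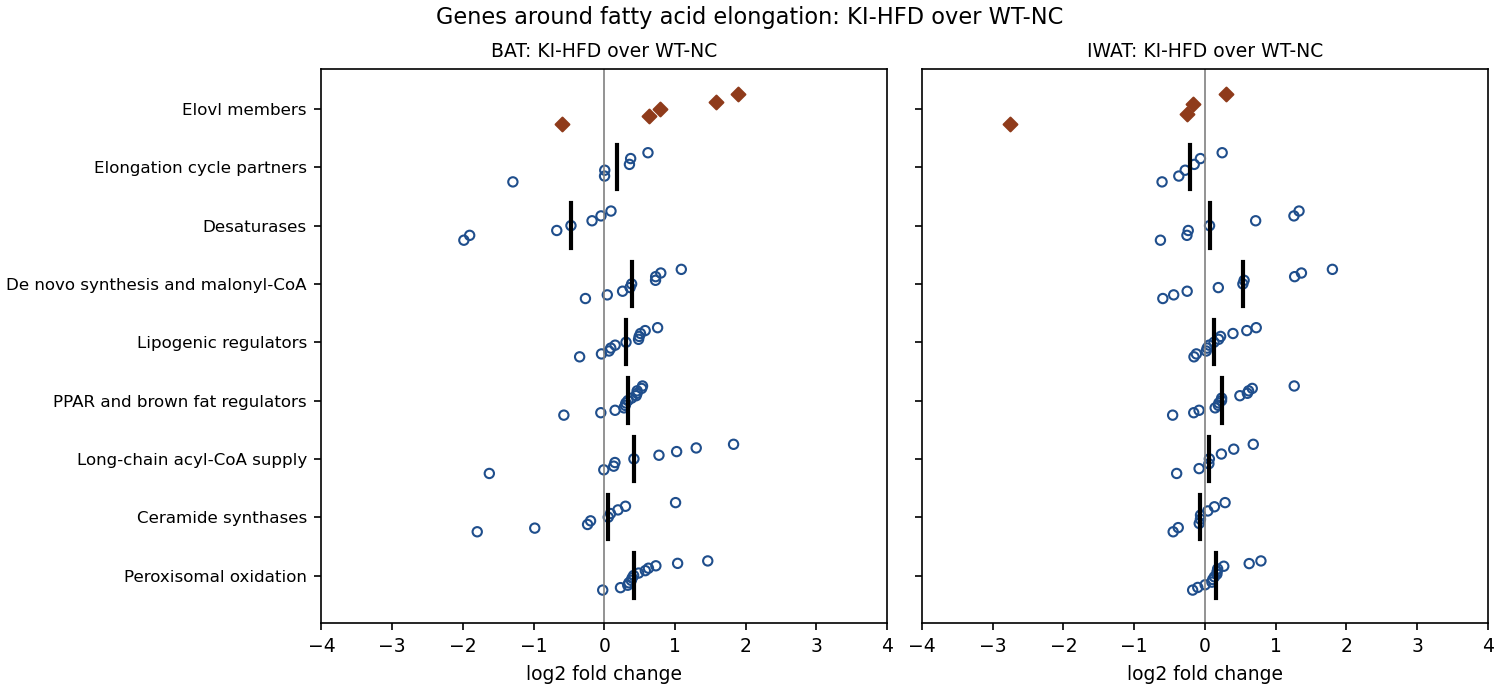
Log2 fold changes of KI-HFD over WT-NC for the Elovl genes (red diamonds) and for 8 lists of genes around elongation (blue circles, open where the edgeR test was not passed), in BAT on the left and IWAT on the right. Black bars are the lists' medians. All circles are open, and the medians of the lists lie between -0.47 and 0.54.

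Between the depots, the lists differed in how many genes passed the test. In WT-NC, 20 of the 77 tested listed genes were higher in BAT and 13 lower by edgeR, where 14.9% and 13.5% of all genes were (28.4% in all). In KI-HFD, 27 were higher and 12 lower, where 17.2% and 18.8% of all genes were (36.0% in all). Scaling by library totals alone moved the split over all genes from 2594 higher and 2346 lower to 2063 and 3403 in WT-NC, and from 3000 to 2226 higher and 3269 to 4743 lower in KI-HFD. Under it the median log2 fold change of all genes was -0.20 and -0.30, and the depot values above are relative to a median near 0.

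Of the list of de novo synthesis and malonyl-CoA genes, 6 of 9 were higher in BAT in WT-NC and 7 of 9 in KI-HFD, and none was called lower. Acaca, the acetyl-CoA carboxylase that makes malonyl-CoA, was at 316 ± 136 CPM in BAT and 33.6 ± 5.1 CPM in IWAT in WT-NC (SD, n = 3; log2 3.24, SE 0.43, edgeR adjusted p = 0.000243). Fasn was 1.75 higher on the log2 scale (SE 0.43, edgeR adjusted p = 0.0107), a call that was lost in 2 of 19 alternatives. The edgeR adjusted p was 0.0592 without IWAT WT-NC replicate 1 and 0.125 with libraries paired by the number in the deposited files. The WT-NC calls of Acly and Mcat were lost in 3 and 6 of the 19, that pairing among them. The brown fat regulators followed, with 9 of 13 higher and 1 lower in each group of mice. Ppara, a receptor for fatty acids, was at 200.1 ± 54.2 and 8.05 ± 1.67 CPM in WT-NC (SD, n = 3; log2 4.64, SE 0.46, edgeR adjusted p = 4.24e-05). Mlxipl, the carbohydrate response factor, was 2.76 higher on the log2 scale (SE 0.34, edgeR adjusted p = 0.000141), while Srebf1 was not called in either group of mice.

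Slc27a2 was at 95.5 ± 19.4 and 0.423 ± 0.525 CPM in the BAT and IWAT of WT-NC (SD, n = 3; log2 7.82, SE 0.63, edgeR adjusted p = 1.63e-05). The genes of ceramide synthesis lay the other way: 5 of 9 were lower in BAT in both groups of mice, while 0 were called higher in WT-NC and 1 in KI-HFD. That 1 was Sptlc3, at 0 counts in all 3 IWAT KI-HFD libraries (edgeR adjusted p = 0.0205, no longer called in 4 of 19 alternatives). Cers4 differed by -1.73 (SE 0.24, edgeR adjusted p = 0.000297) and Cers5 by -1.29 (SE 0.24, edgeR adjusted p = 0.00222) in WT-NC. Fads3 differed by -2.42 (SE 0.46, edgeR adjusted p = 0.00238), and in KI-HFD by -4.38 (SE 0.50, edgeR adjusted p = 5.32e-05). The WT-NC calls of Acaca, Ppara, Mlxipl, Slc27a2, Cers4, Cers5 and Fads3 held in all 19 alternatives, with highest adjusted p from 0.00505 to 0.0471.

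The shared partners of the elongases had a median log2 difference between depots of -0.15 in WT-NC and 0.27 in KI-HFD over 6 tested genes. Of these, Hacd2 and Hacd4 were lower in BAT in WT-NC. Hacd2 differed by -0.81 (SE 0.28, edgeR adjusted p = 0.0485) and was no longer called in 12 of 19 alternatives, with a highest adjusted p of 0.305. Hacd4 differed by -1.07 (SE 0.31, edgeR adjusted p = 0.0243) and was no longer called in 5 of 19, with a highest adjusted p of 0.114. In KI-HFD, Hacd4 differed by -1.75 (SE 0.33, edgeR adjusted p = 0.00152), a call that held in all 19 alternatives. Hacd1 was higher by 0.99 (SE 0.27, edgeR adjusted p = 0.0135), and it was not called without IWAT KI-HFD replicate 3 (edgeR adjusted p = 0.0538). Tecr differed by 0.62 (SE 0.18, edgeR adjusted p = 0.0204) and was no longer called in 6 of 19 alternatives, with a highest adjusted p of 0.141. Hsd17b12 was not called in either group of mice.

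**Figure D5:**
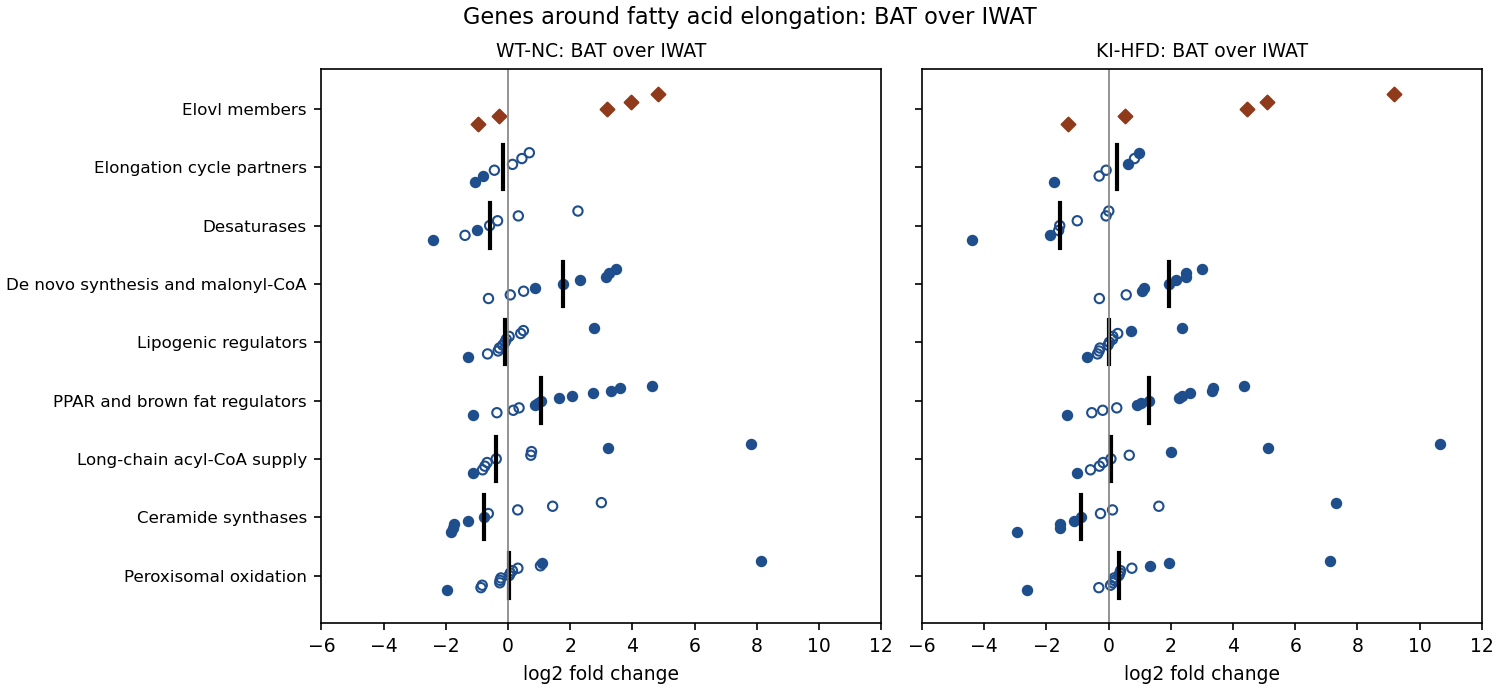
Log2 fold changes of BAT over IWAT for the Elovl genes (red diamonds, calls not marked) and for the 8 lists (blue circles, filled where the edgeR adjusted p was under 0.05), in WT-NC on the left and KI-HFD on the right. Black bars are the lists' medians. Elovl3 lies at 4.82 and 9.16, and the partners of the elongation cycle lie between -1.07 and 0.69 in WT-NC and between -1.75 and 0.99 in KI-HFD.

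The genes whose pattern over the 12 libraries was most like that of Elovl3 or Elovl6 were named by a fixed measure. It was the root mean square difference between log2 CPM profiles, each centred on its own mean. The 12833 genes compared had a mean of at least 2 CPM over the 12 libraries. For Elovl6 the 5 nearest were P2rx5, Acaa2, Letmd1, Ddo and Gpd2, at differences of 0.24 to 0.34, beside a spread of the Elovl6 profile itself of 2.14 (SD on the log2 scale). Acaa2, a mitochondrial thiolase, had group means of 4293 and 6188 CPM in BAT WT-NC and KI-HFD and of 332 and 384 CPM in IWAT. P2rx5, an ATP-gated channel, had group means of 103 and 155 CPM in BAT and of 6.66 and 9.87 CPM in IWAT.

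For Elovl3 the nearest were Car14, Kng2, Slc25a34, Fam131c and Plet1os, at differences of 1.08 to 1.25, beside a spread of the Elovl3 profile of 3.70. Car14, a membrane carbonic anhydrase, had group means of 19.7 and 50.2 CPM in BAT WT-NC and KI-HFD and of 0.122 and 0.0160 CPM in IWAT. The IWAT means of the genes nearest to Elovl3 were under 1 CPM, so they passed the filter on the mean through their BAT levels. Their IWAT values rest on low counts. The differences for Elovl3 are therefore not compared with those for Elovl6.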

How the data were processed

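Single-end, non-stranded, poly-A-enriched libraries were made, per the labels' protocols. The submitters' processing notes name FastQC, STAR, HTSeq, DESeq2 and the build GRCm38.p5, with no versions. The authors deposited raw counts per gene for 12 libraries. They also deposited comparison tables with log2 fold changes, p-values, Wald scores and a base mean, a signal averaged over size-factor-scaled counts, per the file headers. The 5 tally rows of each BAT file, such as reads without a feature (4.99% to 11.6% of reads), were left out. All 55536 identifiers matched GENCODE M21, which gave names, positions and exon lengths.

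Fits were made with edgeR 4.0.16 (quasi-likelihood, TMM, filterByExpr with a minimum count of 10, Benjamini-Hochberg over all genes, threshold 0.05) in R 4.3.3, on 6 libraries within a depot and on all 12 between depots. They were tested on simulated counts. DESeq2 1.42.0, other scalings, no filter, blocks and leaving out each library were alternatives. The members and lists were chosen with earlier results of these data known, so the values of members are a description and not a test. Genes named from the lists were up to 6 called per list and comparison by lowest p, and otherwise up to 4 by highest mean CPM; Hacd4, Acaca and Acacb beside the DESeq2 calls were named after their values were seen. Non-stranded counts cannot separate overlapping genes on opposite strands.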

Additional observations from a re-analysis of the deposited data

Results flagged for a closer look

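Elovl3 was the member whose KI-HFD and WT-NC libraries separated in opposite directions in the 2 depots: every BAT KI-HFD library lay above every BAT WT-NC library, and every IWAT KI-HFD library below every IWAT WT-NC library. The difference of the log2 fold changes, BAT minus IWAT, was 4.34 (SE 0.73). It carries no test here because Elovl3 was chosen with its values known. Over all 17395 genes the edgeR interaction test called 0, the lowest adjusted p being 0.463. An unadjusted p under 0.05 was found for 831 genes, and DESeq2 called 25.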

How the results depend on the processing

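Every fitted log2 fold change of an Elovl gene kept its sign under its 14 or 19 alternatives. Elovl3 ran from 1.19 to 2.06 in BAT, from -3.47 to -2.24 in IWAT and from 3.95 to 5.02 in their difference. The counts of genes called depended on the setting. In BAT (7 called), RLE scaling, library totals, a term for the number series of the deposited files and 1 fit of all 12 libraries each called 0. No count filter called 207, DESeq2 246 and the lower number series alone 1, and leaving out 1 library called 0 to 2, the 2 being without BAT WT-NC replicate 3. In IWAT (0 called), library totals called 2, no filter 45, DESeq2 349 and 1 fit of 12 libraries 1, and leaving out 1 library called 0 to 10, the 10 being without IWAT KI-HFD replicate 3. The replicate number as a block called 11 in BAT and 0 in IWAT. Same-numbered libraries of a depot had correlations of deviations from -0.23 to 0.235 over 6 pairs, with a median of 0.15. Libraries of a depot with different numbers had -0.279 to 0.142 over 12 pairs, with a median of 0.02. The ranges overlap and the pairs are few, so whether the numbers pair samples is not settled. Between depots in WT-NC (4940 called), pairing by the number in the deposited files called 1564, the replicate block 4365, and leaving out 1 library 3176 to 5961, the lowest without IWAT WT-NC replicate 3 and 3199 without IWAT WT-NC replicate 1. In KI-HFD (6269 called), pairing by that number called 4794 and leaving out 1 library 4552 to 6821. The interaction called 33 with no filter and 25 with DESeq2. The causes were not tested. Of 3253 values of members, levels and listed genes under an alternative, 75 were no longer called and 102 changed sign. The sign changes were all of listed genes that were not called, such as Tecr in BAT, and 0 were of members. IWAT counts of Elovl3 in KI-HFD, and all counts of Elovl2 and Elovl7, are limited by depth.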
